A study of Mus musculus with 16 samples.

Results

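The nitric oxide and cyclic GMP genes described here were Gucy1b1, Gucy1a1, Nos3, Prkg1, Pde5a, Npr1 and Npr3, 7 of the 16593 genes named on a mouse lung expression array. They were chosen by gene symbol, with earlier results of these arrays known. All 7 had a probe and together they had 11 probes, 3 each for Gucy1a1 and Nos3 and 1 for each of the others. Each of 16 mice, all female and of strain C57BL/6N, gave lung RNA for 1 Illumina bead array, with 4 mice per group. The groups were Prdm11 knockout mice challenged with ovalbumin (OVA), wild-type mice challenged with OVA, untreated knockout mice and untreated wild-type mice. Challenge, which models allergic airway inflammation, was sensitisation by the intraperitoneal route, with 2 mg alum and 10 µg OVA, and 3 later exposures of 30 min to a 1% OVA aerosol. The labels do not say whether the untreated mice had been sensitised. Challenged mice were 35 weeks old and untreated mice 22 weeks old, so challenge and age cannot be told apart in any comparison of challenged with untreated mice. The labels give no knockout allele, and no probe was named for Prdm11 (0 probes), so genotype rests on the labels.

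Nitric oxide made in endothelial cells by the synthase encoded by Nos3 diffuses into neighbouring smooth muscle. There it binds the heme of soluble guanylyl cyclase, a dimer of an alpha subunit (Gucy1a1) and a beta subunit (Gucy1b1), which makes cyclic GMP. Atrial and B-type natriuretic peptides reach the same second messenger through the membrane receptor Npr1, whereas Npr3 binds and clears the peptides. Cyclic GMP activates the kinase Prkg1, which relaxes vascular and airway smooth muscle, and is degraded by the phosphodiesterase Pde5a. In the lung the pathway is known for keeping pulmonary vascular tone low, and Pde5a and soluble guanylyl cyclase are drug targets in pulmonary hypertension.

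Values are probe intensities on the linear scale as deposited, and differences are log2 differences with standard errors from 1 limma fit over the 16 arrays. The arrays had medians of 85.4 to 86.5, and the 40th percentile of an array, 75.4 to 76.2, served as a gauge of background. Challenged wild-type mouse 4 stood apart, correlating at 0.68 to 0.84 with the rest over the tested probes, against 0.88 or higher for all pairs without it. Several results that rest on challenged wild-type mice are therefore also given without this mouse. Nothing in the labels says more of replicates than that they were separate mice.

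The genes of both soluble guanylyl cyclase subunits and Npr3 were lower in challenged than in untreated mice of both genotypes, and their start regions are shown because these 3 genes moved together. The windows run from 250 bases before to 50 bases after the annotated start, from RefSeq on GRCm38.p6, on the minus strand in each case. They lie at chr3:82074662-82074961 for Gucy1b1, chr3:82145601-82145900 for 1 of the starts of Gucy1a1 and chr15:11907322-11907621 for Npr3. Capitals mark matches, on either strand, to the GC box or to the CACCC box.
Gucy1b1: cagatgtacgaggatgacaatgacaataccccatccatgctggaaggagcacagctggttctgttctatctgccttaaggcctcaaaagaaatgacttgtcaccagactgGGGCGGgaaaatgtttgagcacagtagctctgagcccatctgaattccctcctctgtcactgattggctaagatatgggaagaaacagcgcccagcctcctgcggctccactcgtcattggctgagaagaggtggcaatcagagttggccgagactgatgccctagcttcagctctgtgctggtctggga
Gucy1a1: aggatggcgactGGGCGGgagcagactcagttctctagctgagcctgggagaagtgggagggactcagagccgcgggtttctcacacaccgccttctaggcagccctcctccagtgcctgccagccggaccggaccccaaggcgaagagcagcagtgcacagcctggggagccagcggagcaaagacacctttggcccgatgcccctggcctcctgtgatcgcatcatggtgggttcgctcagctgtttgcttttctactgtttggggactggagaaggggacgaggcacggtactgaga
Npr3: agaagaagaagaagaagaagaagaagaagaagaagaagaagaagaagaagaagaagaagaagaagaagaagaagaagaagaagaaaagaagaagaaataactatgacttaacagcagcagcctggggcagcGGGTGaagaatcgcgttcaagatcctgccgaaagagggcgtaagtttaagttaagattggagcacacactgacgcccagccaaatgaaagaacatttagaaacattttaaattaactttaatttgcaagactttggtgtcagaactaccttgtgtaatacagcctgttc
Both strands were searched for the GC box, spelled GGGCGG, and for the box spelled CACCC. They were also searched for an ETS-type motif, spelled AGGAAG, and for a TATA box, spelled TATAA, and 0 matches overlapped. The windows of both cyclase genes held 1 GGGCGG, a sequence found in 35.7% of the 32851 windows of the same length. The Npr3 window held 1 CACCC, found in 57.5% of windows, and opened with a long run of GAA repeats. The TATA and ETS-type letters, present in 24.9% and 35.4% of windows, had no match in these windows. The window of the other annotated start of Gucy1a1 held 3 CACCC boxes and 1 ETS-type match. In RefSeq, Gucy1b1 and Gucy1a1 were neighbours on chromosome 3 with 0 protein-coding genes between them.

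Gucy1b1, the beta subunit of soluble guanylyl cyclase, had intensities of 123, 158, 48.3 and 101 in challenged knockout mice and 52.3, 69, 96.4 and 43.1 in challenged wild-type mice. In untreated mice it had 260.1, 212, 221 and 240.1 in knockouts and 293, 247, 246 and 252 in wild types. Every challenged mouse lay below every untreated mouse, and the 2 genotypes overlapped within each treatment. The log2 difference between challenged and untreated mice was -1.24 ± 0.29 in knockouts, a 2.36-fold lower level. In wild types it was -2.06 ± 0.29, and -1.88 without wild-type mouse 4. Only 1 of the 4 challenged wild-type mice lay above the 40th percentile. With dim values raised to that percentile the wild-type decrease was 3.22-fold, a lower bound for background only. In lung RNA, fewer cells of a type and less RNA per cell cannot be told apart.

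Among challenged mice, Gucy1b1 was 0.67 ± 0.29 higher on the log2 scale in knockouts than in wild types, with an adjusted p of 0.0728. With 1 of 4 challenged wild types above the 40th percentile, this is given as at least 1.23-fold higher, and the log2 values that follow rest on signal near background. The log2 difference was 0.49 without wild-type mouse 4. It passed the threshold in 2 of the 16 fits that left out 1 array, at 0.88 and an adjusted p of 0.0218 without wild-type mouse 3 and at 1.01 and an adjusted p of 0.0042 without knockout mouse 3. It also passed with array weights, at 0.70 and an adjusted p of 0.0309, and with a skeletal muscle covariate, at 0.94 and an adjusted p of 0.0443. The interaction, the challenge difference in knockouts minus that in wild types, was 0.82 ± 0.41 with an adjusted p of 0.18, and 1.16 with an adjusted p of 0.0379 without knockout mouse 3. With array weights it was 0.88 with an adjusted p of 0.0406. The 7 genes were chosen with earlier results of these arrays known, so adjusted p-values printed for them are no independent evidence.

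Gucy1a1, the alpha subunit, had 3 probes, of which ILMN_1228564 was the brightest and stands first here. Challenged knockout mice had 542.5, 731, 240.3 and 459, and challenged wild-type mice 603, 513, 887 and 138. Untreated knockout mice had 1531.5, 1514, 1638 and 1541, and untreated wild-type mice 1966, 1738, 1748 and 1500.1. The challenged and untreated groups did not overlap, and the lowest value of all was that of challenged wild-type mouse 4. The log2 difference with challenge was -1.77 ± 0.43 in knockouts, 3.40-fold lower, and -1.97 ± 0.43 in wild types, 3.92-fold lower. The wild-type difference was -1.41 without mouse 4.

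The other 2 Gucy1a1 probes gave differences in the same direction. Probe ILMN_2591425 ranged from 103 to 133 in challenged knockouts, 105 to 148 in challenged wild types, 169 to 248 in untreated knockouts and 205 to 235.5 in untreated wild types. Its log2 differences with challenge were -0.72 ± 0.14 in knockouts and -0.79 ± 0.14 in wild types. Probe ILMN_1241211 gave -0.70 ± 0.19 and -1.14 ± 0.19 in the same order of genotypes, the latter -0.95 without wild-type mouse 4. The 3 probes disagreed on genotype among challenged mice: the log2 difference between knockout and wild type was 0.05 ± 0.43 at the first probe, -0.06 ± 0.14 at ILMN_2591425 and 0.50 ± 0.19 at ILMN_1241211. The last had an adjusted p of 0.0459, which was lost in 12 of the 16 fits that left out 1 array. Without wild-type mouse 4 it was 0.31 with an adjusted p of 0.129, and the first probe turned to -0.51.

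**Figure D1:**
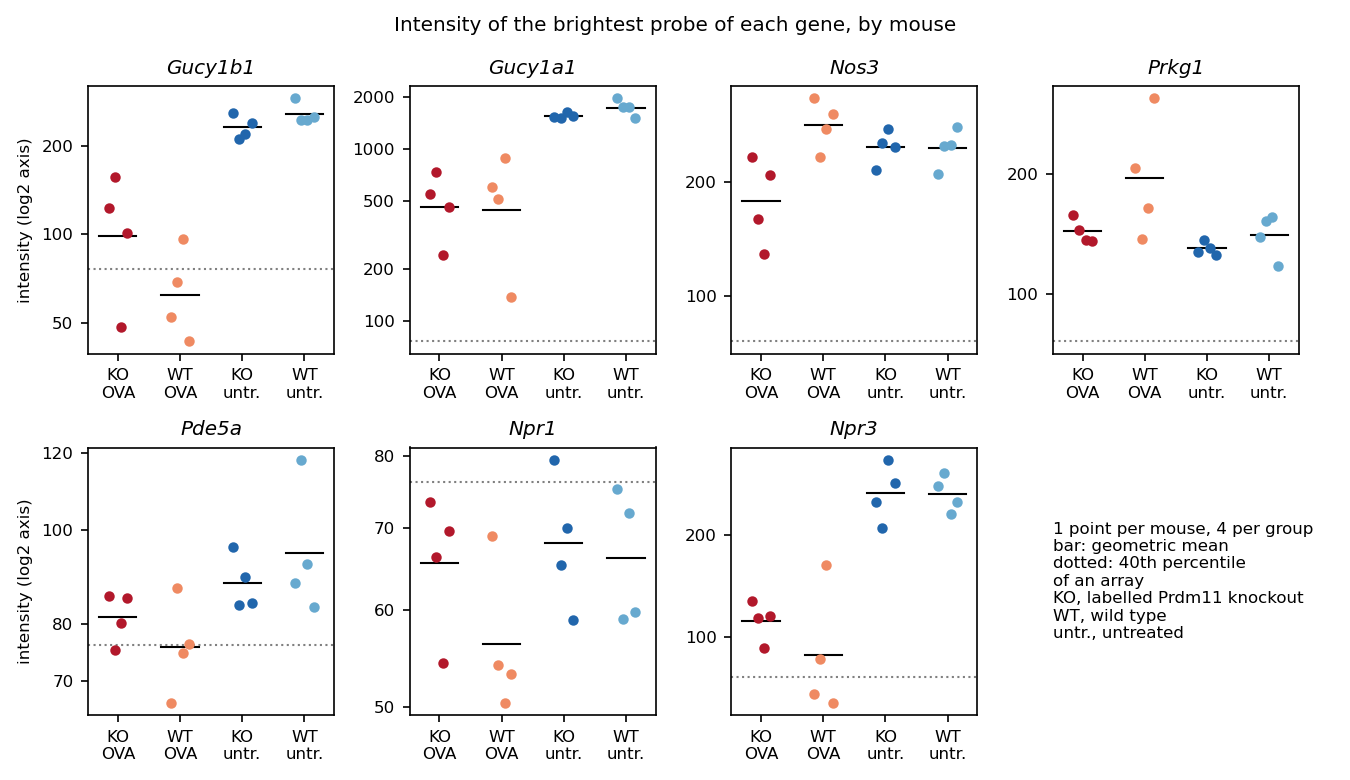
Intensity of the brightest probe of each gene on a log2 axis, 1 point per mouse, for challenged knockout, challenged wild-type, untreated knockout and untreated wild-type mice, with the geometric mean of each group as a bar and the 40th percentile of an array as a dotted line. Gucy1b1, Gucy1a1 and Npr3 have no challenged mouse at or above the lowest untreated mouse, and Npr1 lies above the dotted line on 1 of 16 arrays.

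Npr3, the clearance receptor of the natriuretic peptides, had 128, 113.5, 92.6 and 115 in challenged knockouts and 68, 86, 163 and 63.8 in challenged wild types. Untreated knockouts had 251, 211, 335 and 285.5, and untreated wild types 279.6, 305.5, 231 and 251. Challenged and untreated mice did not overlap, and wild-type mouse 3 was the highest of the 8 challenged mice. The log2 difference with challenge was -1.26 ± 0.24 in knockouts, 2.39-fold lower, and -1.59 ± 0.24 in wild types, 3.00-fold lower. Only 2 of the 4 challenged wild-type mice were above the 40th percentile. The genotypes differed by 0.34 ± 0.24 among challenged mice, with an adjusted p of 0.249, and by 0.63 with an adjusted p of 0.0070 without wild-type mouse 3. Without wild-type mouse 4 the difference was 0.18.

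Npr1, the guanylyl cyclase receptor that the clearance receptor competes with, was above the 40th percentile on 1 of the 16 arrays and was not tested. Its intensities were 54.3 to 73.5 in challenged knockouts, 50.4 to 68.9 in challenged wild types, 58.9 to 79.5 in untreated knockouts and 59 to 75.2 in untreated wild types. All 4 groups overlapped, and no difference is drawn from values this near to background.

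Nos3, the endothelial nitric oxide synthase, differed by genotype after challenge. It was lower in challenged knockout than in challenged wild-type mice at all 3 probes. The brightest probe (ILMN_2713835) had 233, 160.1, 129 and 208.5 in challenged knockouts and 332, 232, 276.5 and 301 in challenged wild types. The group means of untreated mice lay between these, with 215, 253, 276 and 247 in knockouts and 210.4, 249, 250.1 and 279 in wild types. The challenged genotypes overlapped by a single mouse in each group, and their log2 difference was -0.67 ± 0.17 with an adjusted p of 0.0063. Probe ILMN_2729153 ranged from 119 to 165 in challenged knockouts and from 184 to 285 in challenged wild types, a difference of -0.57 ± 0.15 with an adjusted p of 0.0088. Without wild-type mouse 4 that difference was -0.43. Probe ILMN_2788593 had 148, 105, 115 and 133 in challenged knockouts and 175, 171.5, 179.8 and 177 in challenged wild types, a difference of -0.50 ± 0.12 with an adjusted p of 0.0038. At both of these probes the challenged genotypes did not overlap. At each of the 3 probes the call held in all 16 fits that left out 1 array. It was missed at ILMN_2713835 and ILMN_2729153 in the fit of the 8 challenged arrays alone, with adjusted p of 0.0525 and 0.0544, and with array weights, with adjusted p of 0.0517 and 0.0651.

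The differences of Nos3 with challenge were taken within each genotype. In knockouts they were -0.47 ± 0.17, -0.39 ± 0.15 and -0.39 ± 0.12 on the log2 scale over the 3 probes. Of these, ILMN_2788593 was called lower and the other 2 were not, and its call was lost in 5 of the 16 fits without 1 array. In wild types they were 0.20 ± 0.17, 0.13 ± 0.15 and 0.04 ± 0.12. The interaction was -0.68 ± 0.24, -0.52 ± 0.22 and -0.43 ± 0.16, with adjusted p of 0.0784, 0.12 and 0.0935, so none of the 3 passed. Without wild-type mouse 2 the first probe had an interaction with an adjusted p of 0.0435.

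Prkg1, the cyclic GMP-dependent kinase of smooth muscle, had 158, 145, 137 and 136 in challenged knockouts and 207, 137.5, 165 and 311 in challenged wild types. Untreated knockouts had 128, 137, 131 and 125.5, and untreated wild types 139.5, 153, 156 and 118. All neighbouring groups overlapped, and the highest value was that of challenged wild-type mouse 4. The log2 difference with challenge was 0.14 ± 0.18 in knockouts and 0.47 ± 0.18 in wild types, and the wild-type estimate was 0.25 without that mouse. Challenged knockouts differed from challenged wild types by -0.44 ± 0.18 with an adjusted p of 0.0626, and by -0.22 without wild-type mouse 4. Leaving out wild-type mouse 2 or 3 gave adjusted p of 0.0102 and 0.0394 for this difference.

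Pde5a, which breaks down cyclic GMP, lay close to the background gauge. It had 85.6, 75.3, 80.2 and 85.1 in challenged knockouts and 66.4, 87.2, 74.8 and 76.4 in challenged wild types. Untreated knockouts had 96.1, 83.7, 89.5 and 84.2, and untreated wild types 88.1, 118, 92.2 and 83.4. All neighbouring groups overlapped. The log2 difference with challenge was -0.12 ± 0.12 in knockouts and -0.32 ± 0.12 in wild types, and the challenged genotypes differed by 0.10 ± 0.12 with an adjusted p of 0.484.

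With the brightest probe standing for a gene and an adjusted p under 0.05 as the call, 3 of the 6 tested genes (Gucy1b1, Gucy1a1 and Npr3) were called lower with challenge in knockouts. The background there was 16.6% of the 17810 tested probes, 9.1% higher and 7.48% lower. Nos3 joined them without challenged wild-type mouse 4, without challenged knockout mouse 1 and with array weights. The same 3 genes were called lower in wild types, where 29.4% of probes were called, 11.7% higher and 17.7% lower. These genes were chosen with those results known, so nothing is read from the counts. Between challenged genotypes, 1 of the 6, Nos3, was called lower in knockouts, in a comparison that called 44.2% of all probes, 21.1% higher and 23.1% lower. Between untreated genotypes 0 of the 6 were called by limma, 0 at an unadjusted p under 0.05, and 0.0168% of all probes (3 probes) were called. The largest such difference among the tested probes of the 7 genes was -0.15 ± 0.29, that of Gucy1b1. For the interaction 0 of the 6 were called by limma, 1 (Nos3) had an unadjusted p under 0.05, and 9.33% of all probes were called. Over the 6 genes the median log2 difference with challenge was -0.85 in knockouts and -0.95 in wild types, beside -0.05 and 0.03 over all tested probes in the same order. The choice of genes with results known applies to these medians too, so nothing is read from them. Both challenge comparisons share no mice with each other, but each shares its challenged mice with the comparison of genotypes after challenge.

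**Figure D2:**
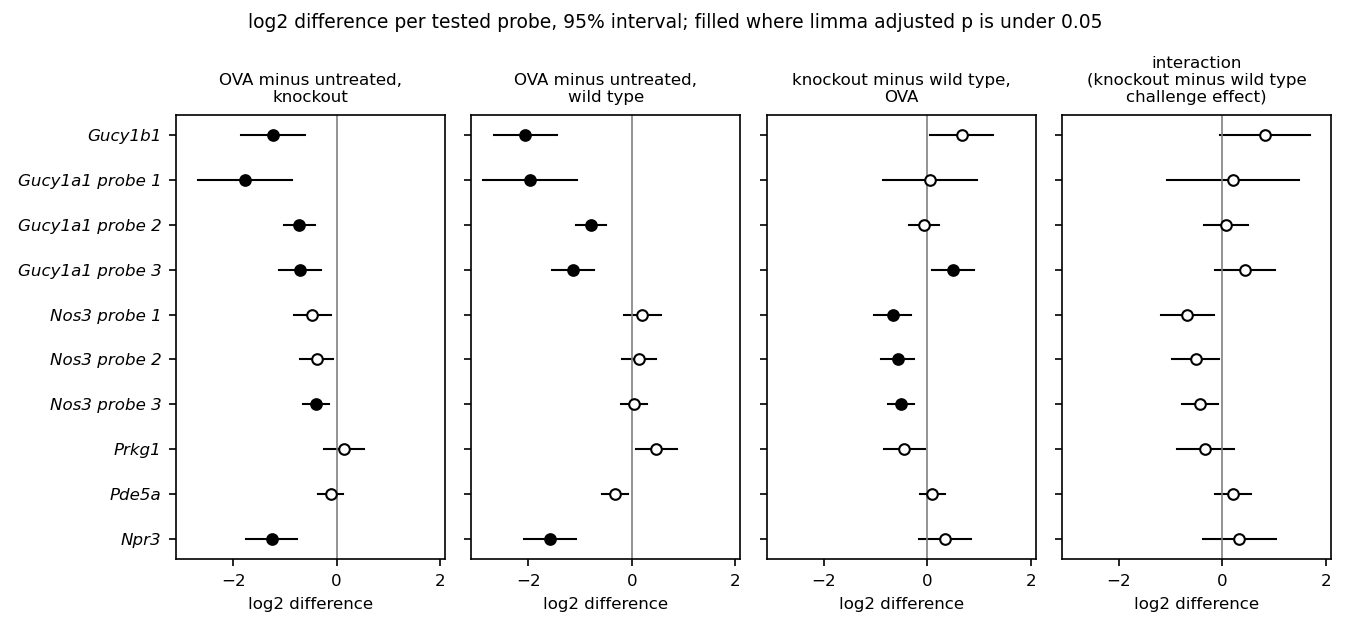
Log2 difference of each tested probe with its 95% interval, in 4 panels for the challenge in knockouts, the challenge in wild types, knockout minus wild type after challenge, and the interaction; filled points have a limma adjusted p under 0.05. The 5 probes of Gucy1b1, Gucy1a1 and Npr3 lie left of 0 in both challenge panels, and the 3 Nos3 probes lie left of 0 in the genotype panel.

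The 2 cyclase subunits also varied together from mouse to mouse. With group means removed, the brightest probes of Gucy1a1 and Gucy1b1 had a correlation of 0.80 over the 16 arrays and 0.92 without challenged wild-type mouse 4. Npr3 correlated at 0.64 with Gucy1b1 and at 0.63 with Gucy1a1. The 3 Nos3 probes correlated at 0.55 to 0.71 among themselves, and the brightest of them at 0.17 with Gucy1b1 and 0.11 with Gucy1a1. Prkg1 and Gucy1a1 had -0.57 over the 16 arrays but 0.28 without wild-type mouse 4, so that relation rests on 1 array. These values are descriptions over points that share arrays and groups, and they carry no test. Challenged knockout mouse 3 had the lowest value of its group for Gucy1b1, Gucy1a1, Npr3 and the brightest Nos3 probe. Challenged wild-type mouse 3 had the highest value of its group for Gucy1b1, Gucy1a1 and Npr3.

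Over the 16 arrays with group means removed, the genes most like Gucy1b1 were Cavin2, a caveolar coat protein, at a correlation of 0.96, then Pmp22 at 0.96 and Lhfp at 0.94. For Gucy1a1 they were Bicc1, Agpat4 and Sh3bgrl, each at 0.98. The list for Npr3 was led by Epas1, a hypoxia-inducible transcription factor abundant in lung endothelium, at 0.94, followed by Tspan18 at 0.92 and Tie1, an endothelial receptor tyrosine kinase, at 0.90. Nos3 was most like Bcan at 0.88, Rcan3 at 0.86 and She at 0.86. For Prkg1 the leading gene was S1pr3, a sphingosine 1-phosphate receptor, at 0.97, and for Pde5a it was Wfs1 at 0.82.

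Of 83 other genes of the pathway listed by role, 55 were tested, 18 lay below the filter and 10 had no named probe. With challenge, 10 rose and 5 fell in knockouts, and 5 rose and 9 fell in wild types. Their median log2 differences were 0.06 and -0.01 in the same order, and their called shares of 27.3% and 25.5% stood beside the 16.6% and 29.4% of all probes given above. Without challenged wild-type mouse 4 the counts were 14 higher and 7 lower in knockouts, whose own arrays did not change, and 7 higher and 8 lower in wild types. After challenge, 12 were higher and 10 lower in knockouts than in wild types, a share of 40% beside 44.2% of all probes. Between untreated genotypes 0 of the 55 were called by limma, and 1 had an unadjusted p under 0.05.

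Among the 6 tested partners of nitric oxide synthase, 1 rose and 2 fell in challenged knockouts, and 0 rose and 2 fell in challenged wild types. For this and each list below, the shares of all tested probes were 9.1% higher and 7.48% lower in knockouts, and 11.7% higher and 17.7% lower in wild types. The 1 that rose was Nosip, a protein that binds the synthases, at 0.48 ± 0.16 (adjusted p = 0.0466), a call lost in 10 of the 16 fits without 1 array. The 2 that fell were the same in both genotypes. Nostrin, which carries the endothelial synthase from the membrane into the cell, fell by 1.62 ± 0.30 on the log2 scale in knockouts (adjusted p = 0.0016) and by 1.47 ± 0.30 in wild types (adjusted p = 0.0025). Its wild-type difference was -1.14 without challenged wild-type mouse 4, and still called. Cav1, the caveolar scaffold that holds the synthase inactive, fell by 1.72 ± 0.27 in knockouts (adjusted p = 0.0005) and by 1.30 ± 0.27 in wild types (adjusted p = 0.0027). Among genes of arginine supply, Arg1, the arginase that competes with the synthases for their substrate, was called higher in challenged knockouts (adjusted p = 0.0194). Its rise was at least 2.93-fold, a bound for background only that leaves out the spread between mice. Over the 16 fits without 1 array the log2 difference, on signal near background, ranged from 1.32 to 2.26. The call was lost without challenged knockout mouse 1 or 4 or untreated knockout mouse 4, with adjusted p of 0.0673, 0.0717 and 0.0541. Of 5 tested genes of tetrahydrobiopterin, the cofactor of the synthases, Gch1 was called higher in challenged knockouts at 0.74 ± 0.23, a call lost in 8 of the 16 fits without 1 array.

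Of the 4 other guanylyl cyclases tested, Npr2, the receptor of C-type natriuretic peptide, fell by 0.72 ± 0.15 in challenged knockouts (adjusted p = 0.0040). In wild types its difference was -0.43 ± 0.15 (adjusted p = 0.0431), a call lost in 11 of the 16 fits without 1 array. Gucy2e was called higher in wild types, at 0.78, a call lost in 1 of those fits. After challenge 0 of the 4 were higher and 2 (Gucy2c and Gucy2e) lower in knockouts than in wild types. The shares of all probes were 21.1% and 23.1%. Both kept that call in all those fits, at -0.71 to -0.51 and -1.24 to -0.72. Natriuretic peptides and the proteases that process them gave 2 higher and 0 lower genes of 6 in knockouts, and 1 higher and 1 lower in wild types. Nppb, the B-type natriuretic peptide, rose by 1.62 ± 0.35 with challenge (adjusted p = 0.0049), and Corin, the protease that activates the atrial peptide, rose by 1.5 ± 0.28 (adjusted p = 0.0020). Both were also higher in challenged knockouts than in challenged wild types, Nppb by 1.30 ± 0.35 (adjusted p = 0.0091) and Corin by 1.36 ± 0.28 (adjusted p = 0.0021). Their interactions had adjusted p of 0.0857 and 0.0782 and did not pass. The higher gene in wild types was Nppa, the atrial natriuretic peptide, at 2.44 ± 0.86 (adjusted p = 0.0438), a call lost in 10 of the 16 fits without 1 array. Without challenged wild-type mouse 4 the Nppa difference was 1.99 by limma (adjusted p = 0.0886). In knockouts its difference was 2.21 ± 0.86 (adjusted p = 0.0947). Nppa, Nppb and Corin are known from the heart. Furin, a proprotein convertase, fell by 0.39 ± 0.10 in wild types (adjusted p = 0.0113).

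Among the 9 tested cyclic GMP kinase and target genes, 3 rose and 1 fell in challenged knockouts, and 2 rose and 2 fell in challenged wild types. Prkg2, the membrane-bound cyclic GMP kinase, fell by 1.03 ± 0.23 in knockouts (adjusted p = 0.0059) and by 1.61 ± 0.23 in wild types (adjusted p = 0.0002). Pln, the phospholamban that restrains the calcium pump of muscle, and Hspb6, a small heat shock protein of muscle, were called higher in knockouts at 1.46 ± 0.43 and 1.23 ± 0.38 (adjusted p = 0.0299 and 0.0365). Each call was lost in 6 of the 16 fits without 1 array. Rgs4, which shortens signalling by G proteins, rose by 0.86 ± 0.12 in knockouts (adjusted p = 0.0002), against 0.15 ± 0.12 in wild types. It was the 1 gene of the 55 with a called interaction, a share of 1.8% beside 9.33% of all probes. The interaction was 0.70 ± 0.16 with an adjusted p of 0.0226. That call was lost, with adjusted p of 0.0501 to 0.0519, in 4 of the fits without 1 array, those without untreated wild-type mouse 1 or 3, untreated knockout mouse 3 or challenged knockout mouse 1. None of the 8 tested phosphodiesterases was called with challenge in wild types (0 of 8 by limma, 2 at an unadjusted p under 0.05). Pde2a was called higher in knockouts at 0.71 ± 0.19 (adjusted p = 0.0159), a call lost without untreated knockout mouse 4 or challenged knockout mouse 3 or 4. After challenge 2 of the 8 were higher and 3 lower in knockouts than in wild types, beside 21.1% and 23.1% of all probes. Pde2a and Pde3b were higher, by 0.64 ± 0.19 and 0.44 ± 0.11 (adjusted p = 0.0131 and 0.0062). Pde3b lay near background, with a mean log2 intensity of 6.15, against 6.24 to 6.25 for the 40th percentile of an array. Pde1a, Pde6c and Pde6d were lower, at -0.89 ± 0.28, -0.62 ± 0.21 and -0.34 ± 0.09 (adjusted p = 0.0194, 0.0283 and 0.0094). Without challenged wild-type mouse 4 Pde1a was -0.54 and still called, and Pde6c was -0.37 and no longer called. The Pde6c call was also lost without challenged knockout mouse 1 or 3. Abcc5, a transporter that exports cyclic GMP, fell by 0.91 ± 0.20 in wild types (adjusted p = 0.0049). Of 6 tested genes that remove nitric oxide, 1 rose and 1 fell in each genotype. Mb, the myoglobin of striated muscle, rose by 1.92 ± 0.28 in knockouts and 1.76 ± 0.28 in wild types (adjusted p = 0.0003 and 0.0005). Cyb5r3 was called lower in both. Over the 16 fits without 1 array it ranged from -0.98 to -0.69 in knockouts, and the call held in all. In wild types it ranged from -0.56 to -0.45, and the call was lost in 5.

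**Figure D3:**
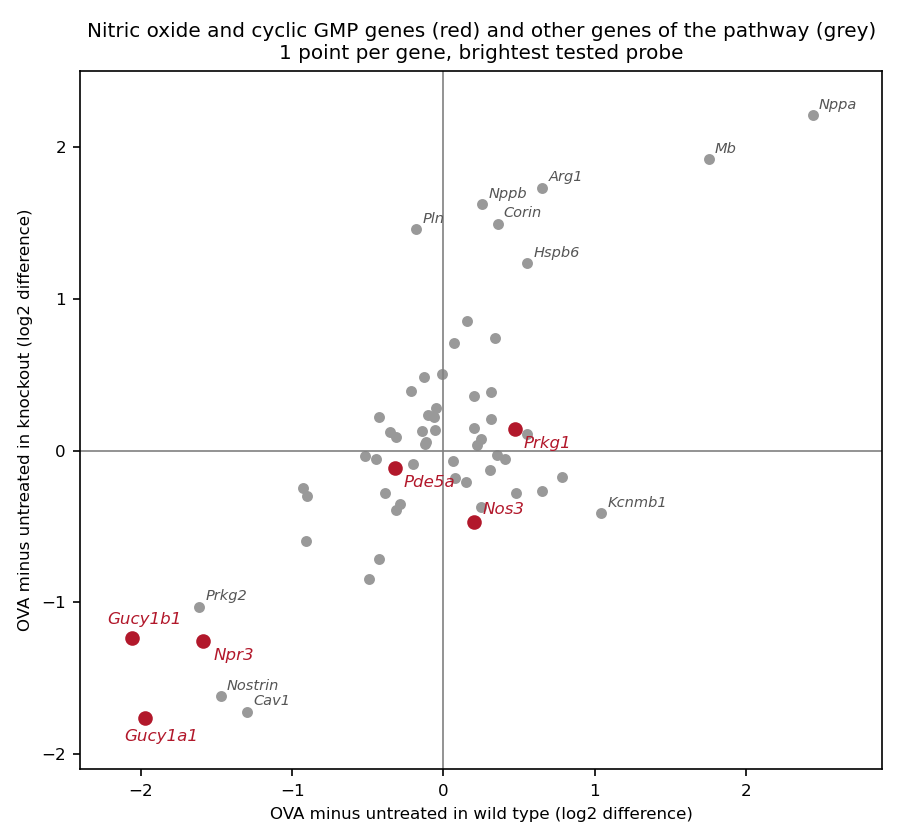
Log2 difference with challenge in wild types (horizontal) and in knockouts (vertical) for the 6 tested genes in red and the 55 other tested genes of the pathway in grey, 1 point per gene. Gucy1b1, Gucy1a1 and Npr3 lie at the lower left beside Nostrin, Cav1 and Prkg2, and Mb lies at the upper right.

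Markers of several lung cell types moved with these genes. The summed intensity of 17 endothelial markers was 6303 to 17448.5 in challenged knockouts, 17478 to 27486 in challenged wild types, 34139.8 to 36998 in untreated knockouts and 31349 to 36666 in untreated wild types. With challenge 15 of the 17 fell in knockouts and 9 in wild types, none rose (0 in each), and 16 or 17 were above the 40th percentile on every array. The all-probe shares for these and the other marker counts are those given for the pathway lists. The lowest endothelial sum was that of challenged knockout mouse 3 and the highest of the challenged mice that of wild-type mouse 3. These mice were also lowest and highest in their groups for Gucy1b1, Gucy1a1 and Npr3. That order was not particular to endothelium. Among challenged mice they were also lowest and highest for fibroblast (6480 and 14872), alveolar type 1 (4480 and 19560) and leukocyte markers (8622 and 17711). The other lists did not follow it. For smooth muscle and pericyte markers, knockout mouse 3 was the highest challenged knockout (14678) and wild-type mouse 3 had 10903. Between challenged genotypes, 8 of the 17 were lower and 0 higher in knockouts, with a median of -0.46, beside 23.1% and 21.1% of all probes. Among them Cdh5, the cadherin of endothelial junctions, differed by -1.13 ± 0.22 on the log2 scale between challenged knockouts and challenged wild types (adjusted p = 0.0015), the direction of the Nos3 difference. Smooth muscle and pericyte markers summed to 11628 to 14678 in challenged knockouts, 10825 to 14759.5 in challenged wild types, 14829 to 17639 in untreated knockouts and 15552 to 17632 in untreated wild types. Of 16 tested, 4 fell and 1 rose in knockouts and 8 fell in wild types. Markers of lung fibroblasts and of alveolar type 1 cells also fell, 7 of 13 and 6 of 8 in knockouts and 5 of 13 and 3 of 8 in wild types, where 1 fibroblast marker rose. Of leukocyte markers, 7 of 10 were higher in knockouts and 4 of 10 in wild types, with 0 lower in each. Their median log2 differences were 0.94 and 0.61. Their summed intensity was 8622 to 12115 in challenged knockouts, 12855 to 17711 in challenged wild types, 11193 to 13986 in untreated knockouts and 11729 to 12674 in untreated wild types. Adipose markers gave 2 of 5 higher in knockouts and 1 of 5 in wild types, and airway epithelial markers 1 of 6 lower in each genotype. The part of these markers in the differences of the 7 genes was not tested.

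Striated muscle markers moved the other way. The summed intensity of 16 skeletal muscle markers was 54154 to 81209 in challenged knockouts, 12409 to 74919 in challenged wild types, 13193 to 25909.7 in untreated knockouts and 8905 to 20099.6 in untreated wild types. Of 14 tested, 13 rose in knockouts and 10 in wild types. The lowest skeletal muscle sum among challenged mice was that of wild-type mouse 3. Cardiac muscle markers summed to 19268 to 52480.8 in challenged knockouts, 14631.5 to 46835 in challenged wild types, 12213 to 18843 in untreated knockouts and 7471 to 16452 in untreated wild types, and 4 of 10 tested rose in each genotype. With the mean log2 of the skeletal muscle list as a covariate, the challenge differences in knockouts were -0.64 for Gucy1b1, -1.22 for Gucy1a1 and -0.64 for Npr3, and none was called by limma. In wild types Gucy1a1 was -1.64 and was no longer called, while Gucy1b1 and Npr3 still were. The same covariate left 0 of the 55 other pathway genes called in knockouts and 3 in wild types. Over all 17810 tested probes it left 93 called in knockouts, against 2954 without it, and 1123 in wild types, against 5244, so calls were lost across the arrays. In knockouts the covariate was itself separated by challenge, at 8.44 to 8.97 in untreated and 10.21 to 10.95 in challenged mice. In wild types, challenged mouse 3, at 8.45, lay within the untreated range. The covariate and challenge can hardly be told apart in knockouts, so nothing is read from the calls lost there. Estimates in knockouts with the covariate were -1.04 for Cav1, -1.31 for Nostrin, 1.49 for Nppb and 1.26 for Corin, none of them called.

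**Figure D4:**
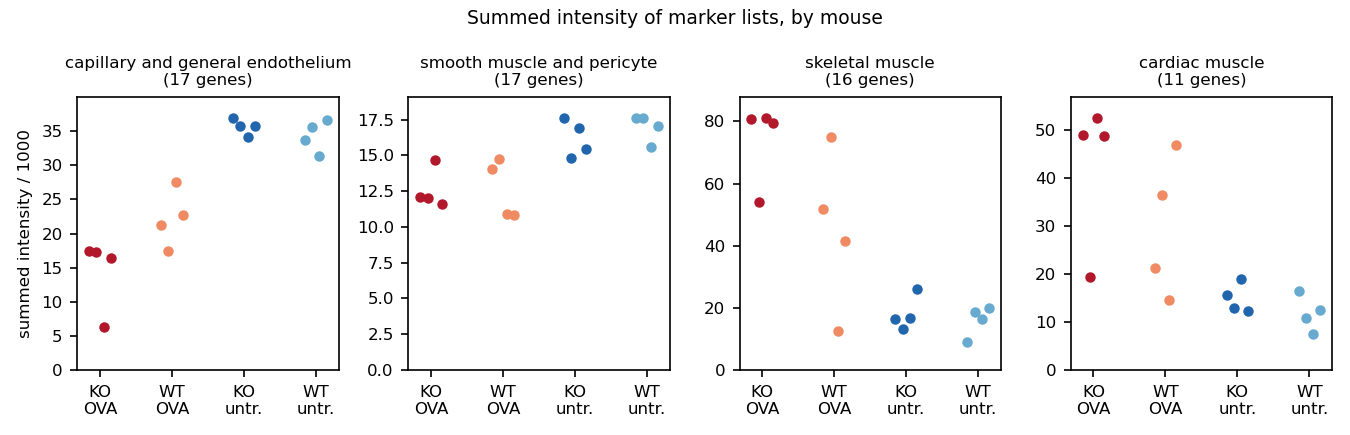
Summed intensity of 4 marker lists, 1 point per mouse, for challenged knockout, challenged wild-type, untreated knockout and untreated wild-type mice. The endothelial and smooth muscle lists are lower in challenged than in untreated mice, and the skeletal and cardiac muscle lists reach higher in challenged mice.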

How the data were processed

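Lung RNA of 16 mice, 4 in each of 4 groups, had been hybridised to Illumina bead arrays. Per probe, the files hold an intensity as deposited, on a linear scale, made with GenomeStudio 2011.1 per the submitters' processing notes. Normalization and background treatment are not given in the sources used here. Sorted values of the arrays were nearly equal, so no further normalization was applied. Values were raised to a floor of 16, which touched 1123 of 411152, and log2 was taken. Probes above the 40th percentile of an array on at least 4 arrays were tested, 17810 of 25697. Probes were named from the platform annotation, which gave 1 symbol for 23978 probes, several for 0 and none for 1719.

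A group-means model over all 16 arrays was fitted with limma 3.58.1 in R 4.3.3 (lmFit, eBayes), and p-values were adjusted over all tested probes by Benjamini-Hochberg within each contrast. A call is an adjusted p under 0.05. The fit was tested on simulated data. The brightest probe stood for a gene in counts, and all probes of the 7 genes are reported. A lower bound on the fold is given where the dimmer group exceeded the 40th percentile in at most 1 of 4 mice. It allows for background only and leaves out the spread between mice. Other pathway genes are named from called genes with large differences in each list, up to 3 per list and contrast, and like genes by the highest correlation. The 7 genes, the lists of pathway genes and markers and the motifs were chosen with earlier results of these data known. Depth does not apply to arrays, and the number of mice limits precision. The alternatives were another floor, filter, normalization, prior or array weighting, the 8 arrays of a contrast alone, each array left out, every probe counted, a replicate block, and a muscle covariate.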

Additional observations from a re-analysis of the deposited data

Results flagged for a closer look

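Gucy1b1 in untreated wild-type mouse 1 had an intensity of 292.6, and the other 3 mice of the group had 246 to 252.3. Its gap divided by the group's range was 0.854, above the 95% limit of Dixon's test for 4 samples. It was the 1 value singled out among 44 groups of probe values examined, and chance alone gives about 1 in 20.

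Rgs4, a regulator of G protein signalling from the list of cyclic GMP targets, differed between genotypes in its response to challenge. The interaction was 0.70 on the log2 scale (adjusted p = 0.0226 by limma), with a rise of 0.86 in knockouts and a difference of 0.15 in wild types. It was 1 of 65 probes of the pathway examined for an interaction, and 9.33% of all tested probes had a called interaction.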

How the results depend on the processing

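The number of mice and signal near background limit these results: Npr1 and Pde5a lay at or near the 40th percentile, and challenged wild types near it for Gucy1b1. A higher floor, median centring, quantile normalization, no filter and a 60th percentile filter moved no count of called genes by over 1.5 times. A trended, robust prior gave 2 called interactions among other pathway genes, against 1. Array weights gave 7, plus 1 among the 7 genes, Gucy1b1 (against 0), and 26 other genes called with challenge in knockouts (against 15), and the 1 of the 7 called by genotype after challenge was Gucy1b1 in place of Nos3. The 8 arrays of a contrast alone gave 23 there, 6 in wild types (against 14), and 0 of the 7 genes and 9 other genes by genotype after challenge (against 1 and 22). The skeletal muscle covariate, itself separated by challenge in knockouts, left 0 of the 7 genes and 0 others called with challenge there. It left 3 others in wild types and gave 2 of the 7 by genotype after challenge. Counting every probe gave 6, 5 and 4 of the 7 genes' probes for the knockout challenge, the wild-type challenge and genotype after challenge, and 2 interactions in the other genes. Replicate numbers were not used to pair the mice in the main fit. Same-numbered deviations correlated at -0.11 to 0.32 over 24 pairs, 6 over 0.1, and 7 of 16 arrays were closest to their own number. These values do not settle whether the numbers carry a pairing. A replicate block gave 3 interactions in other genes and moved no other count by over 1.5 times. Leaving out 1 array gave 3 to 4 of the 7 genes for the knockout challenge, 3 to 5 for the wild-type challenge (5 without challenged wild-type mouse 2), 1 to 4 by genotype after challenge (higher without challenged mouse 2 or 3 of the wild types or 3 of the knockouts), 0 by genotype untreated and 0 to 1 for the interaction. For other genes these ranges were 9 to 21 (9 without challenged knockout mouse 4), 8 to 20 (9 or fewer without untreated wild-type mouse 1, 2 or 3), 16 to 26, 0 and 0 to 8, the last moving by over 1.5 times without any of 11 of the 16 arrays. Signs turned with array weights for Gucy1a1 at its brightest probe, by genotype after challenge (-0.25) and interaction (-0.0864), and for Nos3 ILMN_2729153 by genotype untreated (0.0136). With the covariate they turned for Gucy1a1 ILMN_2591425 by genotype after challenge (0.0453), Nos3 ILMN_2788593 in the wild-type challenge (-0.00485) and Hspb6 in the knockout challenge (-0.81, against 1.23). Leaving out 1 array, Gucy1a1 ranged by genotype after challenge from -0.51 to 0.39 and in the interaction from -0.35 to 0.54 at its brightest probe, and from -0.15 to 0.0196 and -0.0231 to 0.17 at ILMN_2591425. Genotype differences in untreated mice ranged from -0.0685 to 0.0730, -0.11 to 0.0385 and -0.13 to 0.0142 over the 3 Nos3 probes, from -0.10 to 0.12 for Npr3 and from -0.16 to 0.00672 for Pde5a, and wild-type challenge differences from -0.00995 to 0.22 for Nos3 ILMN_2729153 and -0.0214 to 0.12 for ILMN_2788593. None of these turned values passed the threshold, and the causes of the changes were not tested. The called challenge differences of Gucy1b1 and Npr3, and of Gucy1a1 at its brightest probe, kept their sign and call in all 16 fits without 1 array.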
